A study of Homo sapiens with 6 samples.

Results

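The nuclear genes for the subunits of the respiratory chain and of the ATP synthase were followed, complex by complex, in RKO cells, a human colorectal cancer line. They were taken by their symbols: NDUFA, NDUFB, NDUFC, NDUFS and NDUFV genes, SDHA to SDHD, UQCR genes with CYC1, the cytochrome c gene CYCS, COX4 to COX8 genes and ATP5 genes. This gave 95 of the 63563 gene entries measured: 41 for complex I, 4 for complex II, 11 for complex III, 1 for cytochrome c, 19 for complex IV and 19 for complex V. NDUFA4 and NDUFA4L2 were counted with complex IV, where NDUFA4 is known as a subunit. Of the 95 entries, 83 are the first entry of a subunit gene, 5 are second identifiers of a gene already counted, 2 are read-through entries, 2 are copies of a subunit gene (UQCRHL and ATP5L2) and 3 carry such a symbol without being subunits (COX7A2L, ATP5S and ATP5SL). The subunit genes NDUFAB1, USMG5 and C14orf2 carry other symbols and were not taken.

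The cells were RKO cells with a stably transfected pcDNA3.1 plasmid: OVER43 cells received the plasmid with the Cx43 cDNA (3 libraries), and EV cells received it empty and carry the WT label (3 libraries). Both were grown in the same medium, and poly(A) RNA was made into TruSeq libraries. The labels do not say whether a group is 1 clone, a pool of cells or several cultures, so p-values measure the spread between these libraries, and an effect of Cx43 cannot be told apart from any other difference between the transfected populations. GJA1, which encodes the gap junction protein Cx43, stood at 23.2, 26.1 and 24.9 FPKM in OVER43, against 0.3, 0.351 and 0.394 FPKM in EV, so its levels go with the labels. Levels are FPKM, fragments per kilobase of transcript and M fragments, and can be compared between genes. Comparing them between libraries rests on how the libraries are scaled to each other, and counts given below change with that scaling.

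The respiratory chain passes electrons from NADH (at complex I) and succinate (at complex II) through complex III, cytochrome c and complex IV to oxygen. Complexes I, III and IV pump protons across the inner mitochondrial membrane, and complex V, the ATP synthase, uses their return to make ATP. Most subunits are encoded in the nucleus and imported, a few of the core subunits are encoded in mitochondrial DNA, and the nuclear factors NRF1, GABP and YY1 are known to act on promoters of many of the nuclear genes.

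The depth read from the steps of low FPKM values was 46.6 to 49.2 M fragments in OVER43 and 42.5 to 52.1 M in EV. As Cuffdiff scales libraries to each other, this may be a scaled depth and not the number of fragments sequenced. Total FPKM per library came to 554456 to 566947 for OVER43 cells and 500546 to 509175 for EV cells, so the deposited values as a whole were higher in OVER43. Of the colon epithelial markers, KRT8, KRT18, EPCAM and CDX2 were present, while KRT20, VIL1, CDH1 and KRT19 stayed under 1 FPKM in every library. All 6 fibroblast and all 3 endothelial markers and 4 of 5 leukocyte markers were also under 1 FPKM, CD68 being the exception. Some markers differed between the groups: KRT8 averaged 24.6 ± 1.63 FPKM in OVER43 cells and 58.7 ± 1.92 FPKM in EV cells (SD, n = 3 libraries each; log2 fold change -1.22, adjusted p = 3.71e-06 by limma), KRT18 had 0.89 (adjusted p = 2.78e-06), EPCAM 0.67 (adjusted p = 0.000123) and CD68 -0.13 (adjusted p = 0.00654), while CDX2 did not pass (-0.28). Their part in the results below was not tested. Each value is relative to the other RNA of its library, after the scaling between libraries. More RNA of a gene per cell and less of other RNA thus cannot be told apart.

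Of the 95 entries, 76 passed the filter, a level of 1 FPKM or more in 3 or more libraries. The other 19 fell below it. Among the subunit genes of every cell type, NDUFB11 and COX7B were listed at 0 in all 6 libraries, and NDUFA3, NDUFA6 and ATP5L were at 0 in all but 1 or 2 libraries. An entry at 0 can be a missing estimate, so nothing is drawn from these. The remaining ones below the filter were the second entries of NDUFA6, NDUFA7 and NDUFB8, the read-through NDUFC2-KCTD14, ATP5L2, ATP5SL, and forms known from muscle, testis, lung or low oxygen, namely COX4I2, COX6A2, COX6B2, COX7A1, COX7B2, COX8C and NDUFA4L2.

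Of the 76 entries tested with limma, 41 rose in OVER43, 7 fell and 28 passed in neither direction, at an adjusted p under 0.05. Over all 12205 genes tested, 28.4% rose and 17.5% fell. The median log2 fold change, OVER43 over EV, was 0.16 for the 76 entries and 0.053 for all tested genes, and 64 of the 76 were above 0. The groups did not overlap, with OVER43 above, in 46 of the 76 entries and, with OVER43 below, in 8, beside 33.9% and 22.4% of all tested genes. Most of these genes are highly expressed. Among the 4449 tested genes with a mean of at least 20 FPKM, a limit chosen after the values were seen, 47.8% rose, 14.3% fell and the median was 0.14. Of the 72 entries above that limit, 40 rose (55.6%) and 7 fell (9.72%), with a median of 0.16. Without overlap, OVER43 lay above EV in 45 of these 72 and below it in 7, beside 2378 and 746 of the 4449. The limit does not match levels: the median gene above it had 42.8 FPKM in OVER43 and 39.7 FPKM in EV, and the median entry 116 FPKM in OVER43 and 102.5 FPKM in EV. The summed FPKM of all 95 entries was 11360 ± 256 in OVER43 and 10270 ± 104 in EV (SD, n = 3 libraries each), a ratio of 1.106, beside 1.105 for the sum over all genes. Both had an exact permutation p of 0.1, two-sided, the smallest that 3 against 3 libraries allow.

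**Figure D1:**
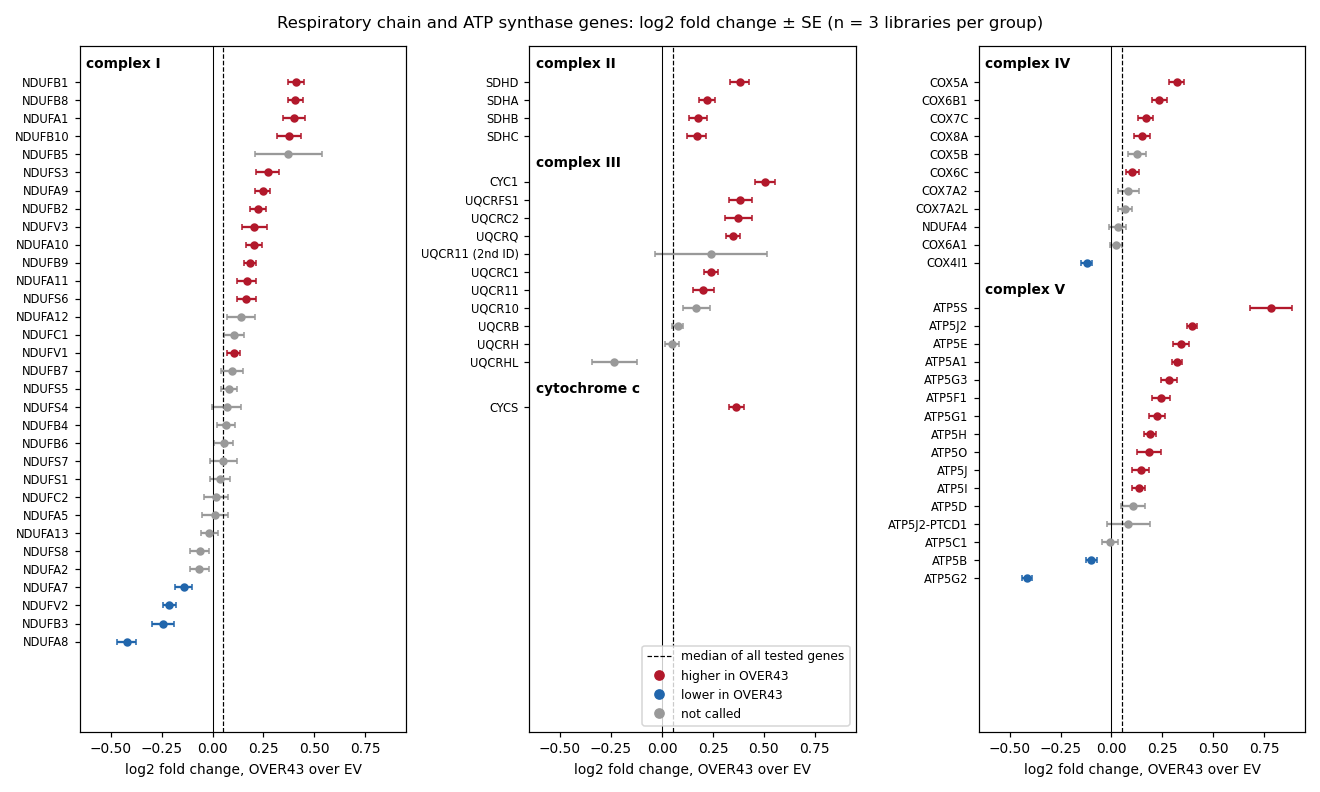
Log2 fold change (OVER43 over EV, on log2(FPKM + 1)) of the tested entries reported here, grouped by complex and ordered by size, with bars of 1 SE from limma (n = 3 libraries per group). Most points lie right of 0 and of the dashed line, the median of all tested genes at 0.053. The 7 entries called lower are NDUFA8, NDUFB3, NDUFV2, NDUFA7, COX4I1, ATP5B and ATP5G2.

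The count of rises depended on how libraries were scaled to each other. With TMM scaling 31 entries rose and 7 fell, beside 23.2% and 21% of all tested genes. With quantile scaling 18 rose and 16 fell, beside 21% and 19.9%, and with equal FPKM sums 19 rose and 14 fell, beside 15.3% and 29.2%. The medians of the entries under the 3 scalings were 0.11, -0.0049 and 0.017, and those of all tested genes were 0.0066, 0.016 and -0.076. A group of 17 entries rose under all 4 scalings (22.4%, beside 14.5% of all tested genes and 24.3% of those of high level), and all 7 that fell as deposited fell under all 4 (9.21%, beside 15.4% and 14.3%). The 17 that rose are NDUFA1, NDUFA9, NDUFB1, NDUFB8 and NDUFB10 of complex I, SDHD of complex II, CYC1, UQCRC2, UQCRFS1 and UQCRQ of complex III, CYCS, COX5A of complex IV, and ATP5A1, ATP5E, ATP5G3, ATP5J2 and ATP5S of the ATP5 genes. In what follows, rose and fell refer to the values as deposited unless a scaling is named.

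**Figure D2:**
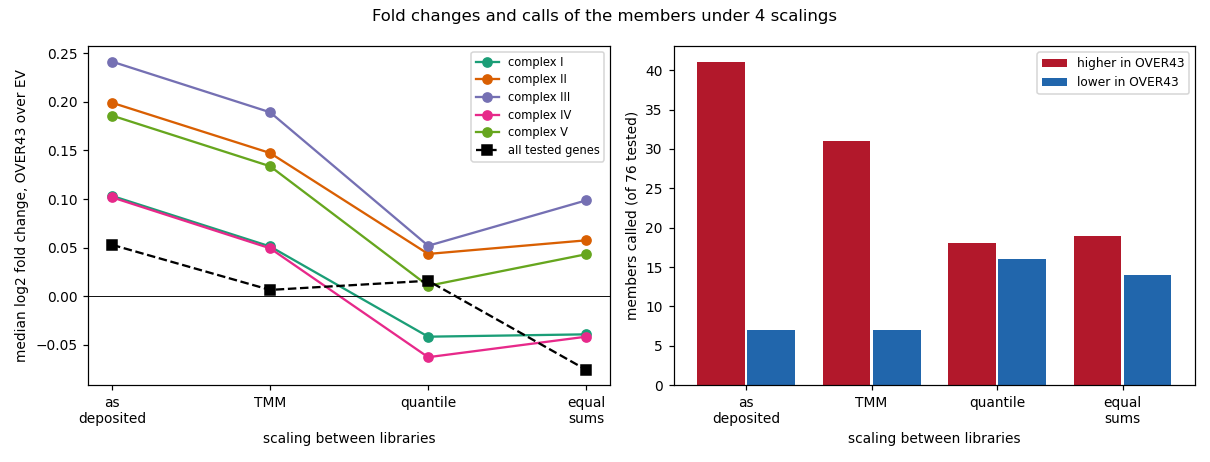
Left, the median log2 fold change (OVER43 over EV) of the tested entries of each complex and of all tested genes under 4 scalings between libraries; right, how many of the 76 tested entries limma called higher or lower under each. Complexes II, III and V keep a median above 0 under all 4, the medians of complexes I and IV fall below 0 with quantile scaling and equal sums, and the number called higher is 41, 31, 18 and 19.

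Complex I, the NADH dehydrogenase, had 33 of 41 entries tested, of which 14 rose (42.4%) and 4 fell (12.1%), with a median of 0.10. Over all tested genes 28.4% rose and 17.5% fell. Among those of high level 47.8% rose and 14.3% fell, with a median of 0.14, so the share that rose in complex I was not above theirs. By gene family, 4 of 10 tested NDUFA genes rose and 2 fell, 5 of 10 NDUFB genes rose and 1 fell, 3 of 8 NDUFS genes rose, 2 of 3 NDUFV genes rose and 1 fell, and neither tested NDUFC gene passed. The summed FPKM of the complex stood at 3466, 3397 and 3578 in OVER43, against 3233, 3222 and 3146 in EV, a ratio of 1.09 beside 1.105 for all genes. The 3 OVER43 sums were above the 3 EV sums (exact permutation p = 0.1, the smallest possible). With quantile scaling 5 entries of complex I rose and 9 fell, and with equal sums 5 rose and 7 fell. Of all tested genes 21% rose and 19.9% fell with quantile scaling, and 15.3% and 29.2% with equal sums.

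The largest rises in complex I were in accessory subunits of the membrane arm. NDUFB1 (hg19 chr14:92582466-92588261) stood at 173, 188 and 189.6 FPKM in OVER43, against 139, 138 and 138 FPKM in EV (log2 fold change 0.41, SE 0.039, adjusted p = 0.000118). Its up to 40 tested neighbours on chromosome 14, 20 on each side, had a median of 0.42, as large as its own change. NDUFB8 (chr10:102246399-102319755, a locus that 4 genes share in the deposited table) stood at 181, 174 and 187 FPKM in OVER43, against 136, 141 and 131 FPKM in EV (log2 fold change 0.41, SE 0.039, adjusted p = 0.000116), with a neighbourhood median of 0.11. In both genes all OVER43 libraries lay above all EV libraries. NDUFA1, an X-linked subunit needed for assembly of the membrane arm, stood at 55.4, 54.7 and 57.6 FPKM in OVER43, against 44.2, 43.4 and 39.1 FPKM in EV (log2 fold change 0.40, SE 0.054, adjusted p = 0.000627). NDUFB10 stood at 92.05, 99.7 and 109 FPKM in OVER43, against 76.96, 77.1 and 77.0 FPKM in EV (log2 fold change 0.37, SE 0.058, adjusted p = 0.00126). Its OVER43 libraries spread over a range that is wide next to the near equal EV libraries, without overlap.

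The NDUFS and NDUFV families hold the core subunits that carry the flavin and the iron-sulfur clusters, beside some accessory ones. Their largest log2 fold change was that of NDUFS3, a core subunit of the arm that reaches into the matrix, which averaged 62.4 ± 4.75 FPKM in OVER43 cells and 51.5 ± 1.44 FPKM in EV cells (SD, n = 3 libraries each; log2 fold change 0.27, adjusted p = 0.00556). NDUFV1, which binds the flavin and NADH, averaged 109 ± 2.73 FPKM in OVER43 cells and 101 ± 0.88 FPKM in EV cells (SD, n = 3 libraries each). Its rise of 0.10 passed as deposited (adjusted p = 0.0307), but turned to -0.092 with quantile scaling and -0.039 with equal sums, and it was lost without any 1 library other than the second OVER43 library (adjusted p = 0.0643 to 0.0761). The NDUFS genes that did not pass had log2 fold changes between -0.062 (NDUFS8) and 0.083 (NDUFS5). NDUFB5, an accessory subunit, did not pass either (log2 fold change 0.37, SE 0.16, adjusted p = 0.105): it stood at 71.9, 44.9 and 49.9 FPKM in OVER43, against 43.8, 38.8 and 43.03 FPKM in EV, and the first OVER43 library lay far above the others.

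Among the accessory subunits, NDUFA9, NDUFA10, NDUFA11, NDUFB2 and NDUFB9 also rose, by 0.17 (NDUFA11) to 0.25 (NDUFA9) on the log2 scale, with NDUFA11 lost without the second EV library (adjusted p = 0.0567). NDUFS6 and NDUFV3, with log2 fold changes of 0.17 and 0.21, each lost their call without any of the first OVER43, the third OVER43, the second EV and the third EV library (adjusted p = 0.0527 to 0.0648). NDUFA2, NDUFA5, NDUFA12, NDUFA13, NDUFB4, NDUFB6, NDUFB7, NDUFC1 and NDUFC2 did not pass, with log2 fold changes between -0.065 (NDUFA2) and 0.14 (NDUFA12).

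The 4 complex I genes that fell were NDUFA8, NDUFB3, NDUFV2 and NDUFA7. NDUFA8, an accessory subunit with paired cysteine motifs found on the intermembrane side, stood at 49.96, 53.8 and 55.0 FPKM in OVER43, against 70.2, 70.7 and 72.5 FPKM in EV (log2 fold change -0.42, SE 0.045, adjusted p = 0.000194). All 3 OVER43 libraries lay well below the EV libraries. The gene lies on chromosome 9 (hg19 chr9:124894745-124922098), and its 40 tested neighbours had a median of -0.40, close to its own change. NDUFV2, the iron-sulfur subunit that pairs with NDUFV1, stood at 156, 164 and 166 FPKM in OVER43, against 185, 189 and 188 FPKM in EV (log2 fold change -0.21, SE 0.032, adjusted p = 0.00111), while its neighbours had a median of 0.023. The groups did not overlap, and the partner subunits had opposite signs as deposited and with TMM scaling, while both were below 0 with quantile scaling and equal sums. NDUFB3, of the membrane arm, stood at 58.9, 52.98 and 53.6 FPKM in OVER43, against 62.4, 68.3 and 65.4 FPKM in EV (log2 fold change -0.24, SE 0.054, adjusted p = 0.00705), with neighbours at -0.0072, and did not pass without a filter (adjusted p = 0.0641). NDUFA7 averaged 46.8 ± 0.92 FPKM in OVER43 cells and 51.7 ± 1.92 FPKM in EV cells (SD, n = 3 libraries each), and its log2 fold change of -0.14 (adjusted p = 0.0256) passed in 2 of 6 fits that each left out 1 library. It was lost without the second OVER43, the third OVER43, the first EV or the third EV library (adjusted p = 0.0504 to 0.0804).

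**Figure D3:**
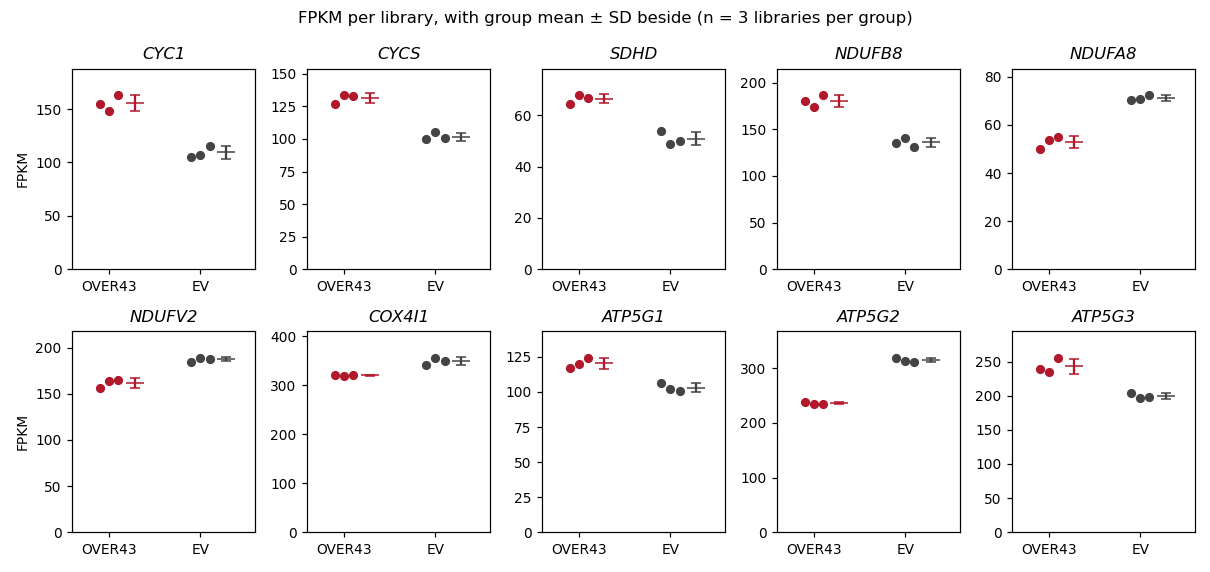
FPKM of 10 genes in each library (points; OVER43 left, EV right), with the group mean ± SD beside the points (n = 3 libraries per group) and axes from 0. In each panel the groups are apart: OVER43 is above EV for CYC1, CYCS, SDHD, NDUFB8, ATP5G1 and ATP5G3, and below EV for NDUFA8, NDUFV2, COX4I1 and ATP5G2.

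Complex II, succinate dehydrogenase, belongs to both the citric acid cycle and the chain and has nuclear subunits only. All 4 genes rose as deposited, with a median of 0.20, and 1 rose with quantile scaling and with equal sums. As deposited, 28.4% of all tested genes rose, and 47.8% of those of high level. With quantile scaling 21% of all tested genes rose, and with equal sums 15.3%. SDHD, a membrane anchor, stood at 64.6, 68.01 and 66.9 FPKM in OVER43, against 53.8, 48.9 and 49.9 FPKM in EV (log2 fold change 0.38, SE 0.047, adjusted p = 0.000377), with no overlap, and was the one of the 4 that rose under every scaling. SDHA, the flavoprotein that oxidises succinate, stood at 64.3, 61.2 and 63.7 FPKM in OVER43, against 55.2, 53.2 and 53.7 FPKM in EV (log2 fold change 0.22, SE 0.038, adjusted p = 0.00215). SDHB, the iron-sulfur subunit, averaged 83.2 ± 3.96 FPKM in OVER43 cells and 73.3 ± 2.12 FPKM in EV cells, and SDHC, the other anchor, 82.4 ± 3.61 FPKM in OVER43 cells and 73.1 ± 2.88 FPKM in EV cells (SD, n = 3 libraries each), with log2 fold changes of 0.18 and 0.17 (adjusted p = 0.0119 and 0.0165). In all 4 genes each OVER43 library lay above each EV library. The call of SDHC was lost without the second OVER43 or the second EV library (adjusted p = 0.0563 and 0.0586). The ratio of the summed FPKM was 1.175 (exact permutation p = 0.1), beside 1.105 for all genes.

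Complex III, the cytochrome bc1 complex, and cytochrome c held the largest change of any subunit gene in the set. CYC1, the cytochrome c1 subunit that hands electrons to cytochrome c, stood at 155, 148 and 163 FPKM in OVER43, against 105, 107 and 116 FPKM in EV (log2 fold change 0.50, SE 0.049, adjusted p = 0.000127). The lowest OVER43 library was far above the highest EV library, and the 40 tested neighbours on chromosome 8 had a median of 0.026. CYCS, the carrier itself, stood at 127, 134 and 133 FPKM in OVER43, against 99.6, 105 and 101 FPKM in EV (log2 fold change 0.36, SE 0.037, adjusted p = 0.000146), also without overlap and with neighbours at 0.0007. UQCRFS1, the Rieske iron-sulfur protein, stood at 88.04, 86.7 and 94.9 FPKM in OVER43, against 63.9, 70.0 and 72.1 FPKM in EV (log2 fold change 0.38, SE 0.055, adjusted p = 0.000827). Its groups were apart, too.

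The core protein gene UQCRC2 stood at 90.5, 90.1 and 87.97 FPKM in OVER43, against 76.9, 63.9 and 66.3 FPKM in EV (log2 fold change 0.37, SE 0.065, adjusted p = 0.00216), with the first EV library above the other EV libraries. UQCRC1, the other core protein, averaged 178 ± 5.98 FPKM in OVER43 cells and 151 ± 2.82 FPKM in EV cells, and UQCRQ, a small subunit next to cytochrome b, averaged 317 ± 13.9 FPKM in OVER43 cells and 248.6 ± 3.31 FPKM in EV cells (SD, n = 3 libraries each), with log2 fold changes of 0.24 and 0.35 (adjusted p = 0.00078 and 0.000163). UQCR11, a small subunit, had 0.20 (adjusted p = 0.0132). In all, 6 of 11 tested entries of complex III rose as deposited (54.5%), none fell, and the median was 0.24. Beside this, 28.4% of all tested genes rose, and 47.8% of those of high level. With quantile scaling and with equal sums 2 entries of complex III fell, beside 19.9% and 29.2% of all tested genes. Under all 4 scalings 4 of the 11 rose (36.4%) and none fell, beside 14.5% and 15.4% of all tested genes. Among those of high level 24.3% rose under all 4. UQCRB and UQCR10 did not pass (adjusted p = 0.0574 and 0.0613), although the groups did not overlap in either. UQCRH, the hinge protein, and its copy UQCRHL share reads that the deposited estimates may split between them. UQCRH averaged 334 ± 11.8 FPKM in OVER43 cells and 323 ± 6.56 FPKM in EV cells, and UQCRHL 10.6 ± 1.87 FPKM in OVER43 cells and 12.6 ± 0.18 FPKM in EV cells (SD, n = 3 libraries each). Neither passed, and their sum had a ratio of 1.03 (exact permutation p = 0.4). The sum over complex III had a ratio of 1.169 (exact permutation p = 0.1).

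Complex IV, cytochrome c oxidase, had 11 of 19 entries tested, of which 5 rose (COX5A, COX6B1, COX7C, COX8A and COX6C) and 1 fell, with a median of 0.10. The share that rose was 45.5%, beside 28.4% of all tested genes and 47.8% of those of high level. COX5A, a subunit on the matrix side, stood at 241, 259 and 257 FPKM in OVER43, against 209, 197 and 200.3 FPKM in EV (log2 fold change 0.32, SE 0.038, adjusted p = 0.000331), without overlap. COX6B1, on the intermembrane side, averaged 138 ± 5.66 FPKM in OVER43 cells and 117 ± 1.73 FPKM in EV cells (SD, n = 3 libraries each; log2 fold change 0.23, adjusted p = 0.00137). COX7C, the most abundant of the tested complex IV subunits, averaged 423 ± 13.1 FPKM in OVER43 cells and 376 ± 13.7 FPKM in EV cells (SD, n = 3 libraries each; log2 fold change 0.17, adjusted p = 0.00597). COX4I1, a regulatory subunit, fell: it stood at 321, 319.5 and 322 FPKM in OVER43, against 341, 356 and 350.2 FPKM in EV (log2 fold change -0.12, SE 0.027, adjusted p = 0.00629), and its 40 neighbours on chromosome 16 had a median of -0.16. All OVER43 libraries were a little below all EV libraries, and without the trend and robust options of limma COX4I1 did not pass (adjusted p = 0.0593). NDUFA4, COX5B, COX6A1, COX7A2 and COX7A2L, an assembly factor of supercomplexes, did not pass, with log2 fold changes of 0.024 (COX6A1) to 0.13 (COX5B). The calls of COX6C and COX8A were lost without the second EV library (adjusted p = 0.0743 and 0.0519), and that of COX6C also without the second OVER43, the third OVER43 or the third EV library (adjusted p = 0.0636 to 0.0753). The ratio of the summed FPKM was 1.075, beside 1.105 for all genes (exact permutation p = 0.1). With quantile scaling and with equal sums 2 entries rose and 2 fell. Of all tested genes 21% rose and 19.9% fell with quantile scaling, and 15.3% and 29.2% with equal sums.

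Complex IV has several pairs of isoforms, a broadly expressed form and one known from particular tissues. COX7B is listed at 0 in all 6 libraries, as is COX6A2, and nothing is drawn from either. COX4I1 was at 320.6 FPKM in OVER43 cells and 349 FPKM in EV cells on average, and COX4I2, known from lung, stood at 0.0462, 0 and 0 FPKM in OVER43, against 0, 0 and 0 FPKM in EV. COX6A1 averaged 306 FPKM in OVER43 cells and 301 FPKM in EV cells, and COX6A2 is the muscle form of this pair. COX7A1, another muscle form, and the testis forms COX7B2 and COX8C stayed at or under 0.347 FPKM in every library. The testis form COX6B2 was low but apart between the groups, at 0.168, 0.0436 and 0.0895 FPKM in OVER43, against 0.515, 0.321 and 0.467 FPKM in EV, and was not tested because it did not pass the filter. NDUFA4L2, known for its induction under low oxygen, stood at 0.759, 0.588 and 0.921 FPKM in OVER43, against 0.899, 1.27 and 0.866 FPKM in EV, with overlap.

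Complex V, the ATP synthase, had 16 of 19 entries tested, of which 11 rose (68.8%) and 2 fell (12.5%), with a median of 0.19. Over all tested genes 28.4% rose and 17.5% fell, and among those of high level 47.8% and 14.3%. In the catalytic head, ATP5A1 (subunit alpha) rose and ATP5B (subunit beta) fell as deposited. ATP5A1 stood at 354, 353 and 359.9 FPKM in OVER43, against 285, 282 and 285 FPKM in EV (log2 fold change 0.32, SE 0.025, adjusted p = 3.79e-05). ATP5B stood at 402, 409 and 415 FPKM in OVER43, against 444, 443 and 426 FPKM in EV (log2 fold change -0.098, SE 0.028, adjusted p = 0.0202), and its 40 neighbours on chromosome 12 had a median of -0.18. Both genes had groups without overlap, but the fall of ATP5B passed in 2 of the 6 fits that each left out 1 library. It was lost without the first OVER43, the second OVER43, the first EV or the second EV library (adjusted p = 0.0501 to 0.0777). Of the central stalk, ATP5E (subunit epsilon) averaged 34.6 ± 0.15 FPKM in OVER43 cells and 27.1 ± 0.21 FPKM in EV cells (SD, n = 3 libraries each; log2 fold change 0.34, adjusted p = 0.000304; neighbours 0.23), while ATP5C1 (gamma) and ATP5D (delta) did not pass.

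ATP5J2 (subunit f of the membrane part) had the highest level of all 95 entries, at 738, 739 and 769 FPKM in OVER43, against 568, 571 and 567 FPKM in EV (log2 fold change 0.40, SE 0.025, adjusted p = 1.73e-05). Its OVER43 libraries were far above its EV libraries. ATP5F1 (subunit b), ATP5H (d), ATP5O (the oligomycin sensitivity protein), ATP5J (F6) and ATP5I (e) rose by 0.13 (ATP5I) to 0.24 (ATP5F1) on the log2 scale. The calls of ATP5J and ATP5O were each lost without any of 3 or 4 libraries (adjusted p = 0.0514 to 0.0886), the second EV and the third EV library among them for both. The entry with the largest change in the set, ATP5S, is named as a coupling factor and is not a subunit: it stood at 15.96, 15.2 and 13.3 FPKM in OVER43, against 9.13, 7.03 and 8.56 FPKM in EV (log2 fold change 0.78, SE 0.10, adjusted p = 0.000549), and its neighbours on chromosome 14 had a median of 0.37. The ratio of the summed FPKM of complex V was 1.11 (exact permutation p = 0.1), beside 1.105 for all genes. With quantile scaling and with equal sums 5 entries rose, beside 21% and 15.3% of all tested genes. Under all 4 scalings 5 of the 16 rose (31.2%) and 2 fell (12.5%), beside 14.5% and 15.4% of all tested genes. Among those of high level these shares were 24.3% and 14.3%. ATP5C1, at -0.007 as deposited, passed under 2 of the other scalings.

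ATP5G1, ATP5G2 and ATP5G3 encode the same mature protein, the c subunit that forms the rotating ring, and differ in the import sequence. ATP5G2 (hg19 chr12:54026510-54071192) fell and stood at 238, 234 and 235 FPKM in OVER43, against 319.5, 314 and 312 FPKM in EV (log2 fold change -0.41, SE 0.026, adjusted p = 1.49e-05), with neighbours on chromosome 12 at -0.15. ATP5G3 rose and stood at 239, 235 and 256 FPKM in OVER43, against 204, 197 and 198 FPKM in EV (log2 fold change 0.28, SE 0.038, adjusted p = 0.000627). ATP5G1 also rose, at 117, 120.2 and 124 FPKM in OVER43, against 106, 102 and 101 FPKM in EV (log2 fold change 0.22, SE 0.037, adjusted p = 0.00184), but did not pass with quantile scaling or equal sums (log2 fold change 0.031 and 0.081). None of the 3 genes overlapped between groups. The sum of the 3 genes was 594.5, 589 and 616 FPKM in OVER43, against 630.4, 613 and 610.3 FPKM in EV, a ratio of 0.971 (exact permutation p = 0.3), so the summed level overlapped between groups. Within that sum ATP5G2 made up 40.1%, 39.7% and 38.2% in OVER43, against 50.7%, 51.2% and 51.1% in EV. ATP5G3 made up 40.5% in OVER43 and 32.3% in EV on average, and ATP5G1 20.1% in OVER43 and 16.7% in EV.

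Stretches of chromosomes differed between the groups, so the change of each member was set beside that of its neighbours. Across the 76 tested entries, the log2 fold change and the median of the neighbouring genes had a Pearson r of 0.556, a description over genes that share the same 6 libraries and, in places, neighbours. Of the 41 entries that rose, 5 lay among neighbours with a median below 0 (NDUFA9 at -0.14 the farthest), and of the 7 that fell, 2 lay among neighbours above 0. NDUFB1 and ATP5S were the tested entries with a neighbourhood median of 0.3 or more, and NDUFA8 the one at -0.3 or less. The part of the neighbourhood in these changes was not tested.

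**Figure D4:**
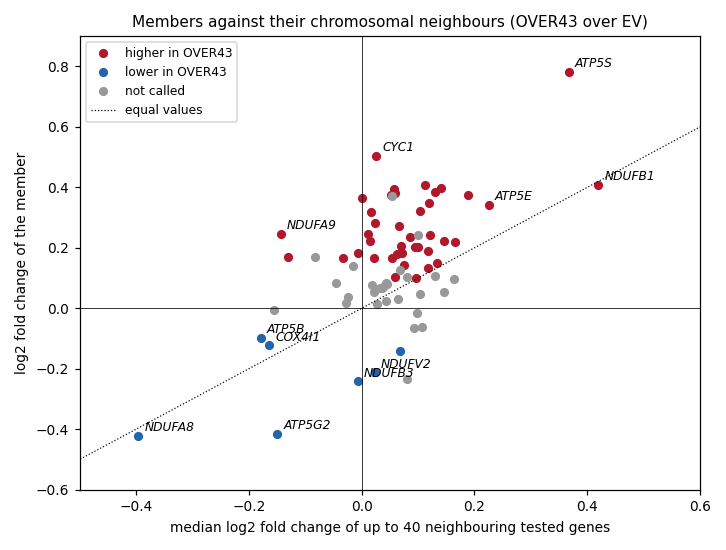
Log2 fold change of the tested entries reported here (vertical axis) against the median log2 fold change of the tested genes around it, up to 20 on each side (horizontal axis), coloured by call. NDUFA8 and NDUFB1 lie near the line of equal values, while CYC1 and ATP5G2 lie far from it.

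Promoters of the members were read from RefSeq (GRCh38.p14; 250 bases before to 50 after the gene start) and could be matched by symbol for 66 of the 83 subunit entries. They were searched on both strands for the cores of the factors known for these genes: GCGCA, any base and GCGC for NRF1, CCGGAAGT for GABP and other ETS factors, and AAGATGGC for YY1. The NRF1 letters stood in 16 of the 66 (24.2%), beside 12.9% of the 8975 promoters of tested genes and 6.28% of all 27305 promoters of the table. The ETS letters stood in 9 (13.6%, beside 9.81% and 4.44%) and the YY1 letters in 11 (16.7%, beside 5.99% and 3.03%). No motifs of different factors overlapped. Of the 33 matched genes that rose, 9 held the NRF1 letters, as did 1 of the 6 that fell and 4 of the 18 that passed in neither direction; for the ETS letters these counts were 5, 0 and 4, and for YY1 6, 1 and 2. By complex the NRF1 letters stood in 6 of 31 promoters of complex I, 2 of 3 of complex II, 4 of 7 of complex III, 1 of 13 of complex IV and 3 of 11 of complex V. A match is a description of the letters and not a binding site.

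The promoters of a pair of genes that rose and of a pair that fell are shown to let the letters be compared, with matches in capitals: NRF1 letters in SDHA (4 copies of 1 form, at -166, -117, -68 and -19), SDHD (1 copy, followed by the ETS letters on the other strand) and NDUFA8 (2 copies that overlap, at -4 and 3), and none in ATP5G2, which RefSeq calls ATP5MC2. Positions count from the gene start, whose first base is 1. The regions are chr5:218070-218369, plus strand for SDHA, chr11:112086623-112086922, plus strand for SDHD, chr9:122159730-122160029, minus strand for NDUFA8 and chr12:53676034-53676333, minus strand for ATP5G2, each written 5′ to 3′.
SDHA: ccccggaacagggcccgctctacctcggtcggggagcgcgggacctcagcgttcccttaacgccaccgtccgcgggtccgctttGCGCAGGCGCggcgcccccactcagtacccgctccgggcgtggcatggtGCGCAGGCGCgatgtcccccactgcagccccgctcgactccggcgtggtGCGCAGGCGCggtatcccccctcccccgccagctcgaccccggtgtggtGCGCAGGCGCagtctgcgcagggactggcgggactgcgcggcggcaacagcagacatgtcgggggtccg
SDHD: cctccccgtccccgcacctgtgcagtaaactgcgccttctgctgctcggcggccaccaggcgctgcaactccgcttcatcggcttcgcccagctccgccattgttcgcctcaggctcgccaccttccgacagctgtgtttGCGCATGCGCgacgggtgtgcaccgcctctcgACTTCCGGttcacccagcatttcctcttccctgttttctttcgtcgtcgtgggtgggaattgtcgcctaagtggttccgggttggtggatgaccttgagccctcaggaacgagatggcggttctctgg
NDUFA8: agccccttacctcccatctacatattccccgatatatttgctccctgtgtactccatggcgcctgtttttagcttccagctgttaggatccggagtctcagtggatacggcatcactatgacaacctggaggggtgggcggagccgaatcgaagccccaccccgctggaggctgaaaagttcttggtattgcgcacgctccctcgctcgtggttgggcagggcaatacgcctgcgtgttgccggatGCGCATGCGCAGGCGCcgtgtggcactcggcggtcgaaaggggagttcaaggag
ATP5G2: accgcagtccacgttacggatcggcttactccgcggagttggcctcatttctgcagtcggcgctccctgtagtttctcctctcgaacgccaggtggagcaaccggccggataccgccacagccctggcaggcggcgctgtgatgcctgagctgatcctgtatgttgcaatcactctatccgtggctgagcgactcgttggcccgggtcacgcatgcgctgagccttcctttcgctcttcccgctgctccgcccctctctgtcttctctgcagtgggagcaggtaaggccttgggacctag

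The RNA of the factors themselves was compared in the same fit. Of the 14 of 16 respiratory gene regulators that were tested, 7 rose (50%) and 1 fell (7.14%) as deposited, and 3 rose with equal sums. As deposited, 28.4% of all tested genes rose and 17.5% fell, and with equal sums 15.3% and 29.2%. NRF1 averaged 10.1 ± 0.65 FPKM in OVER43 cells and 7.93 ± 0.42 FPKM in EV cells (SD, n = 3 libraries each; log2 fold change 0.31, adjusted p = 0.00928; 0.0746 with equal sums). TFAM, which packages mitochondrial DNA, averaged 57.5 ± 4.03 FPKM in OVER43 cells and 43.3 ± 2.06 FPKM in EV cells (SD, n = 3 libraries each; log2 fold change 0.40, adjusted p = 0.00108). GABPB2 and YY1 had the largest rises, of 0.54 and 0.53 (adjusted p = 0.00976 and 0.000123); GABPB2 did not pass without a filter (adjusted p = 0.088), and the neighbours of YY1 on chromosome 14 had a median of 0.50. GABPA, the DNA-binding partner of GABPB2, did not pass (log2 fold change 0.021). The 1 gene that fell was TFB1M, a methyltransferase of mitochondrial ribosomal RNA, at 5.35, 4.64 and 4.82 FPKM in OVER43, against 11.4, 11.1 and 9.86 FPKM in EV (log2 fold change -0.99, SE 0.083, adjusted p = 6.22e-05). The coactivator PPARGC1A was near 0 in both groups.

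Of the 13 subunits encoded in mitochondrial DNA, 7 had an estimate. As deposited 6 of these rose (85.7%, beside 47.8% of the tested genes of high level), while MT-ND5 did not pass. With quantile scaling 2 rose, and with equal sums 3, beside 21% and 15.3% of all tested genes. The other 6 have no estimate and are not analysed here. MT-ND3, of complex I, had the largest rise, at 4918, 5053 and 5009 FPKM in OVER43, against 3646, 3759 and 3496 FPKM in EV (log2 fold change 0.46, SE 0.028, adjusted p = 1.42e-05). MT-CO2, of complex IV, averaged 9369 ± 31.5 FPKM in OVER43 cells and 7856 ± 234 FPKM in EV cells (SD, n = 3 libraries each; log2 fold change 0.25, adjusted p = 8.45e-05), and did not pass with quantile scaling. Levels of these genes exceeded those of every nuclear member in both groups.

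The list of assembly factors holds proteins that help to build the complexes. It also holds some, such as LRPPRC, FASTKD2 and TACO1, that act on mitochondrial RNA or its translation. Of 53 tested, 28 rose (52.8%) and 2 fell (3.77%) as deposited, with a median of 0.19. Over all tested genes 28.4% rose and 17.5% fell, and among those of high level 47.8% and 14.3%. With quantile scaling 18 of the list rose and 5 fell, and with equal sums 15 rose and 6 fell. Of all tested genes 21% rose and 19.9% fell with quantile scaling, and 15.3% and 29.2% with equal sums. OXA1L, which inserts subunits into the inner membrane, stood at 165, 162 and 169.6 FPKM in OVER43, against 89.99, 90.8 and 86.7 FPKM in EV (log2 fold change 0.89, SE 0.033, adjusted p = 1.20e-06), with neighbours on chromosome 14 at 0.34. SCO2, a copper chaperone of complex IV, stood at 34.9, 32.7 and 38.2 FPKM in OVER43, against 24.03, 21.6 and 20.4 FPKM in EV (log2 fold change 0.66, SE 0.076, adjusted p = 0.0003). In both genes every OVER43 library was far above every EV library. NDUFAF3 and NDUFAF7, both of complex I assembly, fell by 0.31 and 0.27 on the log2 scale (adjusted p = 0.00654 and 0.0298). Without a filter neither passed (adjusted p = 0.0622 and 0.139), and the call of NDUFAF7 was also lost without the second OVER43, the first EV or the second EV library (adjusted p = 0.0619 to 0.0911). The list called citric acid cycle genes here also holds genes next to the cycle. These are PDHA1, PDHB, PDHX, DLAT and PC, and the cytosolic forms ACO1, IDH1 and MDH1. Of its 19 tested genes, 12 rose (63.2%) and 1 fell (5.26%) as deposited, with a median of 0.15. PDHB, PDHX, IDH1 and MDH1 are among those that rose. With either of these scalings 6 of the list rose and 3 fell, beside the shares of all tested genes given above. DLST, of the 2-oxoglutarate dehydrogenase complex, rose by 0.64 among chromosome 14 neighbours at 0.40, and SUCLG2, of succinyl-CoA ligase, by 0.41 among neighbours at 0.026 (adjusted p = 1.05e-05 and 0.000186). CS, citrate synthase, fell to 143 ± 2.87 FPKM in OVER43, against 157 ± 4.65 FPKM in EV (SD, n = 3 libraries each; log2 fold change -0.13, adjusted p = 0.0156; neighbours -0.19). The call of CS was lost without the first EV or the second EV library (adjusted p = 0.0578 and 0.0514), without a filter (0.0641) and without the trend and robust options of limma (0.0697).

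At the level of transcripts, 256 entries from 75 member genes were tested, of which 42 rose and 7 fell, beside 9.85% and 4.7% of all 30015 transcripts tested. Without the first, the second or the third OVER43 library, 27, 27 and 24 rose and 6, 4 and 4 fell, and without the first, the second or the third EV library 31, 29 and 32 rose and 5, 4 and 5 fell. The counts over all transcripts in these fits are not given here, so the drop is not set against theirs. The falls of NDUFA8 and ATP5G2 were those of their main transcripts: ENST00000373768.3 made up 99.8% of NDUFA8 in both groups, and ENST00000602871.1 made up 96.3% of ATP5G2 in OVER43 and 95.8% in EV, with a mean of 227 FPKM in OVER43 cells and 302 FPKM in EV cells (log2 fold change -0.41, adjusted p = 0.000451). The largest change of a minor transcript that rose was in UQCRQ, where ENST00000378665.1 averaged 12.1 ± 1.80 FPKM in OVER43 cells and 5.43 ± 0.46 FPKM in EV cells (SD, n = 3 libraries each; log2 fold change 1.02, adjusted p = 0.00472), or 3.81% of the gene in OVER43 and 2.18% in EV. NDUFV1 and ATP5J also held a minor transcript that rose, ENST00000529927.1 with 8.13% of the gene in OVER43 and 4.43% in EV, and ENST00000400093.3 with 9.01% in OVER43 and 5.35% in EV. The NDUFA12 transcript ENST00000550187.1 fell to 0.438 ± 0.29 FPKM in OVER43, against 2.15 ± 0.66 FPKM in EV (SD, n = 3 libraries each; log2 fold change -1.13, adjusted p = 0.0303), while the gene as a whole did not pass. Shares of transcripts of 1 gene are estimates that depend on each other.

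In the authors' deposited table, 19 of the 76 tested entries are marked significant, 17 higher and 2 lower in OVER43, and all 19 were called here in the same fit as the others. The 2 lower ones are NDUFA8 and ATP5G2. The share of all genes marked significant there is not given here, so these counts have no background beside them. Both sets of calls rest on the same 6 libraries. The rest of the 48 entries called here are not marked significant there. Among them are the falls of NDUFB3, NDUFV2, NDUFA7, COX4I1 and ATP5B (the authors' q = 0.243 to 0.875). ATP5J2 (q = 0.401) and NDUFA9 (q = 0.283), which rose here under all 4 scalings, are not marked either. The authors' deposited table also marks COX6B2 as significant and lower in OVER43 (q = 0.00899), an entry below the filter used here.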

How the data were processed

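Poly(A) RNA of 6 RKO samples (3 OVER43, 3 EV) was measured. The authors deposited a gene table and an isoform table with FPKM per library and per group, and the submitters' processing notes name Cuffdiff, without its version, as the tool. Cuffdiff scales libraries to each other. The deposited log2 fold change is EV over OVER43, per the file headers. The deposited test statistic, a score, was not used, and the deposited p-value and q-value of the authors enter only the comparison with the authors' table. Neither the aligner nor the strandedness is given in the sources used here, so overlapping and antisense genes may share reads. The notes name hg38, but the loci are hg19 positions: 1796 of 22269 single-gene loci overlap their GRCh38 position. A locus can hold several overlapping genes. Columns are numbered 0 to 2 and the labels 1 to 3, so columns were matched to groups and not to single samples; the same column number is called the same replicate number. No per-library column was left unused.

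Genes reaching 1 FPKM in 3 or more libraries entered limma 3.58.1 (under R 4.3.3, with its trend and robust options). It was run on log2(FPKM + 1) and compared the groups without covariates. P-values were two-sided and Benjamini-Hochberg adjusted over all 12205 tested genes, with a threshold of 0.05. Fold changes of low genes are understated on this scale. The 19 genes for which Cuffdiff gave no estimate (9 of very high depth, 10 failed) were left out. Transcripts were tested in the same way. Sums of FPKM were compared by exact permutation tests, two-sided, whose smallest p is 0.1. The members and the lists (54 assembly factors, 13 mitochondrially encoded subunits, 16 regulators, 23 citric acid cycle genes and cell type markers) were chosen with earlier results of these data known. Named in full are up to 4 called members per complex with the largest change in each direction, the SDH genes, CYC1, CYCS, paired isoforms, members listed at 0, GJA1, and up to 2 called genes per list and direction. NDUFB5, other complex I genes, CDX2, NDUFV1, NRF1, TFAM, GABPA, MT-CO2 and the transcripts were named beyond this rule, after their values were seen. A single tested member is not reported here by name and is not plotted; counts, medians and sums include it.

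Depth, after any scaling by Cuffdiff, was estimated from the spacing of low FPKM values in single-isoform genes. All of these values (100%) lay within 0.1 of a whole number of fragments. No pair of replicates agreed within sampling noise (chi-square per gene 2.88 to 6.38). The fit was tested on simulated data with known changes. It recovered 10% of log2 changes of 0.2, 64% of those of 0.5 and 94% of those of 1, with 4 false calls. The simulation changed 200 of 12205 genes, while 45.9% of the tested genes were called in the data. Adjusted p-values depend on that share, so the recovery does not carry over to the entries reported here. The alternatives changed the scaling (TMM in an own implementation, quantiles, equal sums), the filter (none, or 5 FPKM), the pseudocount (0.1) and the model (column number as replicate block; no trend or robust option), or left out 1 library at a time.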

Additional observations from a re-analysis of the deposited data

How the results depend on the processing

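Scaling moved most counts. As deposited, 3462 genes rose and 2138 fell; with equal FPKM sums 1870 rose and 3567 fell. Member counts, 41 higher and 7 lower as deposited, were 18 and 16 with quantile scaling and 19 and 14 with equal sums. Higher counts moved in complex I (14 as deposited) to 9 with TMM, 5 with quantile scaling and 5 with equal sums, in complex II (4) to 1 and 1 with the last of these, in complex IV (5) to 3, 2 and 2, and in complex V (11) to 5 and 5. Lower counts moved in complex I (4) to 9 and 7, in complex III (0) to 2 and 2, and in complex IV (1) to 2 and 2. Assembly factors (28 higher, 2 lower) gave 18 and 5 with quantile scaling and 15 and 6 with equal sums. Mitochondrially encoded subunits (6 higher) gave 2 and 3, regulators (7 higher) 3 with equal sums, and citric acid cycle genes (12 higher, 1 lower) 6 and 3 under both and 2 lower with TMM. Signs turned with quantile scaling in NDUFA11 (-0.017), NDUFB4 (-0.13), NDUFB9 (-0.022), NDUFV1 (-0.092), UQCRB (-0.099), UQCRH (-0.12), COX6A1 (-0.15), COX6C (-0.053), ATP5H (-0.0094), ATP5I (-0.036), ATP5J (-0.052) and ATP5O (-0.015), and with equal sums in NDUFV1 (-0.039), UQCRH (-0.094), COX6A1 (-0.12), COX6C (-0.042) and ATP5I (-0.010). These scalings remove the excess of the FPKM sum in OVER43 by construction. Without a filter, which tests more genes, members higher were 27, complex I gave 8 higher and 2 lower, complex II 2 higher, complex IV 2 higher and 2 lower, complex V 1 lower, assembly factors 17 higher and 0 lower, regulators 3 higher and citric acid cycle genes 0 lower. Without trend and robust options members lower were 4, complex IV gave 3 higher and 0 lower, complex V 1 lower and citric acid cycle genes 0 lower; the cause was not tested. Of 48 called members, 20 (17 higher, 3 lower) kept their call in all 14 alternatives. The same share over all called genes is not given here.

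Leaving out 1 library at a time left 4696 to 4928 of all tested genes called, 32 to 45 members higher and 5 to 7 lower, with 10 to 18 higher and 3 to 4 lower in complex I, 3 to 4 higher in complex II, 6 to 8 higher and 0 to 1 lower in complex III, 3 to 6 higher in complex IV, 9 to 11 higher and 1 to 2 lower in complex V, 1 to 2 assembly factors lower, and 0 to 1 citric acid cycle genes lower. Member transcripts higher numbered 24 to 32 and lower 4 to 6, against 42 and 7, with no count over all transcripts beside them. With the column number as a replicate block, 41 members rose and 6 fell, complex V gave 1 lower, assembly factors 1 lower, and member transcripts 23 higher and 4 lower. Deviations of same-numbered libraries correlated at 0.017, -0.091 and 0.029, so the numbers share only a name and do not pair the libraries. A count test was not run, since the tables hold FPKM. With 3 libraries per group, a member that passed in neither direction is not shown to be equal between groups.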
